A study of Drosophila melanogaster with 12 samples.

Results

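Non-LTR retrotransposons, also called LINE-like elements, were followed here as annotated single copies and as sums over the copies of each element. A copy was included when its FlyBase name gave 1 of 32 elements of this class (jockey, jockey2, Doc, Doc2, Doc3, F, G, G2 to G6, I, Ivk, Juan, BS, BS2 to BS4, Cr1a, X, Rt1a, Rt1b, Rt1c, R1A1, R2, baggins, HeT-A, TART-A, TART-B, TART-C and TAHRE). This gave 977 copies among 24278 features in the deposited table, of which 5898 were transposable element rows. Copies of 29 elements were found, and none carried the names BS2, R2 or TAHRE. SIRT6 is an enzyme that removes acyl groups from histones and uses NAD, and the question of the series was its bearing on tryptophan breakdown in the head. Each library was made from the head of 1 virgin female Drosophila melanogaster, 21 days old. The flies were either w1118, a white-eyed laboratory stock, or a stock labelled SIRT6 KO. From eclosion, flies of both genotypes ate food with 100 µM of 680C91, which inhibits TDO2, an enzyme that breaks down tryptophan, or with its solvent DMSO. The 4 groups were SIRT6 KO with DMSO, SIRT6 KO with inhibitor, w1118 with DMSO and w1118 with inhibitor, with 3 libraries each. The labels do not say how the knockout was made or whether its stock had been crossed into w1118, so the allele and other differences between the stocks cannot be told apart. A position is that of the reference genome, and whether a fly carried a given annotated copy was not measured.

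Non-LTR elements copy themselves through an RNA that is reverse transcribed at the site of insertion, so their full-length RNA is both the messenger and the template of new copies. In flies, HeT-A, TART and TAHRE insert at chromosome ends and maintain the telomeres, in place of telomerase. R1 and R2 insert at fixed sites in the ribosomal RNA genes. Small RNAs of the piRNA pathway, mainly in the germ line, small RNAs of the siRNA pathway and heterochromatin hold these elements down. RNA assigned to a copy can come from the element's own promoter or from a gene in which the copy lies, and counts do not tell these apart. In whole heads, more cells that use a copy and more RNA per cell cannot be told apart either.

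Libraries held 24633705 to 44545859 estimated counts. Sirt6 itself had 2.11 CPM ± 0.220 (SD, n = 6) in the KO-labelled libraries and 2.10 CPM ± 0.494 (SD, n = 6) in w1118, so its transcript was not lost and genotype directions are those of the labels. CPM are counts scaled to a common library total with TMM factors. Replicate 2 of both w1118 groups stood apart: pairs of replicates that included them differed with a chi-square of 643.4 to 1475 per degree of freedom, and other pairs with 80.8 to 260.6. Marker genes of the fat body, mostly yolk protein genes, summed to 101529 to 150223 CPM in the KO-labelled libraries and to 3465 to 280771 CPM in w1118, where both of these libraries were lowest. Marker lists of neurons and photoreceptors were present in all 12 libraries. Of 13 ovary and germ-line markers, 10 averaged under 1 CPM, as did 9 of 10 testis markers.

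The summed elements differed between the genotypes in both directions. Of the 29 elements, 27 had enough counts to be tested, and TART-B and BS4 did not. The test was edgeR's quasi-likelihood test at an adjusted p of 0.05. With DMSO, 10 of 27 passed, 7 higher in KO-labelled libraries (background 3.04%) and 3 lower (2.02%), where 5.06% of all 14428 features passed. With inhibitor, 9 passed, 6 higher (2.55%) and 3 lower (1.56%), against 4.11% of all features. In the effect averaged over treatments, which uses the same libraries, 13 passed, 9 higher (background 6.94%) and 4 lower (4.94%), against 11.9% of all features in either direction. The median log2 fold change of the 27 elements in this average was 0.35, and that of all features was -0.03. The 9 higher were TART-A, Ivk, G4, BS, Rt1a, Doc2, Rt1b, Juan and G6, and the 4 lower were R1A1, TART-C, X and G. Of the other classes of transposable elements, 23 of 62 LTR elements were higher and 13 lower, and 1 of 22 DNA elements was higher and 1 lower. Without replicate 2 of both w1118 groups, 20 non-LTR elements passed, 15 higher and 5 lower, and the share of all features that passed rose alongside, from 11.9% to 29.5%.

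**Figure D1:**
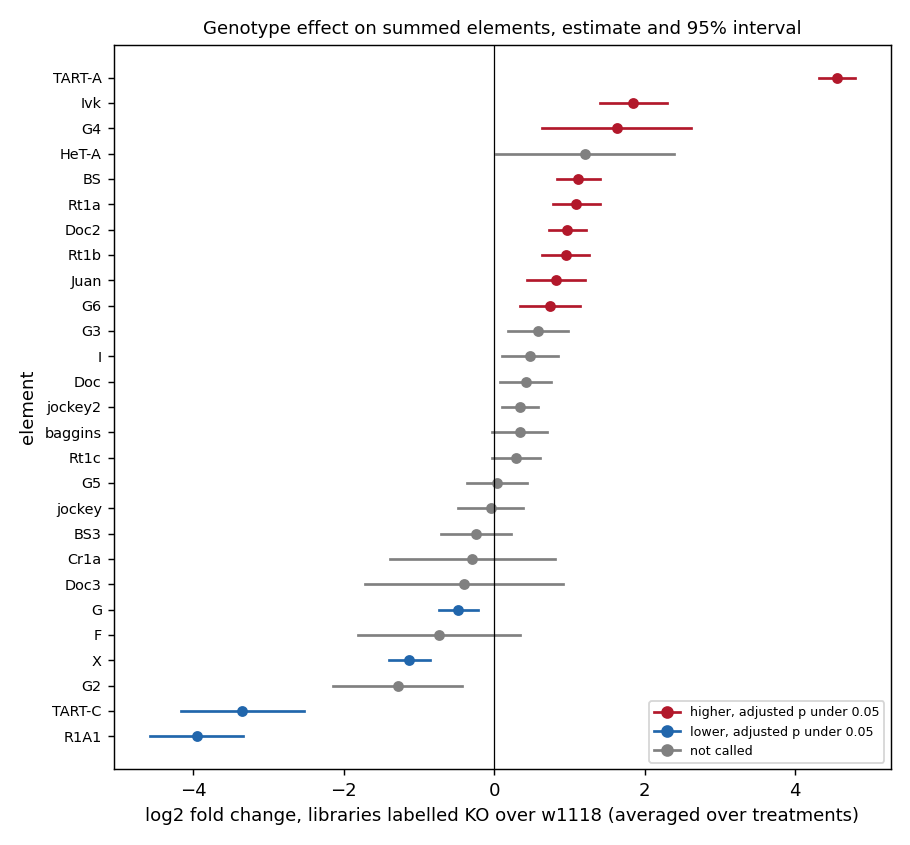
Log2 fold change of each of the 27 tested elements, KO-labelled libraries over w1118, averaged over treatments (x axis), with its 95% interval; elements are ordered by the estimate (y axis). TART-A at 4.56 and R1A1 at -3.95 stand at the ends, and most other estimates lie between -1.3 and 1.9.

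In all, non-LTR copies took a small part of the counts. Their share of all counts was 0.361%, 0.337% and 0.397% in the KO-labelled libraries with DMSO and 0.388%, 0.552% and 0.912% in those with inhibitor. In w1118 the share was 0.550%, 0.757% and 0.634% with DMSO and 0.532%, 0.808% and 0.430% with inhibitor. The share was thus lower in the KO-labelled libraries with DMSO than in any w1118 library, while those with inhibitor overlapped with w1118. By contrast, LTR copies took 2.61% to 3.45% of counts in the KO-labelled libraries and 0.810% to 1.58% in w1118. Over both treatments the mean share in the KO-labelled libraries minus that in w1118 was -0.128 percentage points. Without R1A1 the share was 0.324% to 0.901% in the KO-labelled libraries and 0.241% to 0.566% in w1118, and the genotypes overlapped with DMSO too. The difference of the means was then 0.0699 percentage points, and -0.0150 without replicate 3 of the KO-labelled libraries with inhibitor. Within treatments, and without R1A1, it was -0.0567 with DMSO and 0.196 with inhibitor.

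Among the telomeric elements, TART-A showed the largest difference of any non-LTR element. TART carries both the coat protein and the reverse transcriptase gene of the telomere elements. Its 10 copies summed to 179.5, 174.2 and 181.3 CPM in the KO-labelled libraries with DMSO and to 191.5, 196.9 and 211.4 CPM in those with inhibitor. In w1118 the sums were 9.42, 7.61 and 10.5 CPM with DMSO and 6.67, 7.94 and 6.23 CPM with inhibitor. Every KO-labelled library lay far above every w1118 library. The averaged log2 fold change was 4.56 (SE 0.11, 95% interval 4.32 to 4.80, edgeR adjusted p = 1.16e-08), a ratio of means of 23.4. One copy, TART-A{}6259, held 96.9% of these counts. It is 12306 bases long, lies outside annotated genes at 4:1333119-1345424 (BDGP6, minus strand) and had 183.6 CPM ± 16.3 (SD, n = 6) in the KO-labelled libraries and 6.06 CPM ± 1.20 (SD, n = 6) in w1118. Its neighbour TART-A{}6261, of similar length, took 13.6, 2.697 and 3.24 CPM in 3 of the KO-labelled libraries and 0 in the other 9 libraries. Without the largest copy, TART-A was 0.99 (adjusted p = 0.522).

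HeT-A, the telomeric element with most annotated copies here, encodes a coat protein but no reverse transcriptase, and most of its tested copies rose. The 27 annotated copies summed to 131.6, 104.4 and 110.4 CPM in the KO-labelled libraries with DMSO and to 113.8, 154.9 and 149.1 CPM in those with inhibitor. In w1118 they summed to 28.2, 34.1 and 23.6 CPM with DMSO and to 22.6, 264.7 and 29.9 CPM with inhibitor. The KO-labelled libraries lay above 5 of the w1118 libraries and below replicate 2 with inhibitor. The averaged log2 fold change was 1.20 (SE 0.53, 95% interval 0.02 to 2.39) and did not pass the test (edgeR adjusted p = 0.180). That w1118 library decided the value: without it the change was 2.24 (adjusted p = 2.71e-05). HeT-A was singled out after its values had been seen.

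The excess in that w1118 library came from 1 short copy of 476 bases, HeT-A{}6266 (4:1307884-1308359), chosen after its values had been seen, with 241.9 CPM there and at most 1.65 CPM in each of the other 11 libraries. Of the 16 HeT-A copies tested singly, 12 were higher in the KO-labelled libraries and 0 were lower, where 7.8% of all features tested were called higher; of the 4 not called, HeT-A{}6266 alone had a negative estimate. The copy with most counts was HeT-A{}4800 (X:116487-122492), which measured 37.7, 30.9 and 39.6 CPM in the KO-labelled libraries with DMSO and 30.0, 46.1 and 45.2 CPM with inhibitor. In w1118 it measured 13.5, 20.5 and 7.84 CPM with DMSO and 8.82, 7.71 and 14.6 CPM with inhibitor. No library of one genotype reached the range of the other (log2 fold change 1.67, SE 0.25, edgeR adjusted p = 0.00167). HeT-A{}6255 on the same chromosome end (X:103614-107842) changed by 2.57 (SE 0.16, adjusted p = 4.68e-06), and HeT-A{}6270 on chromosome 4 (4:1295016-1296989) by 3.67 (SE 0.26, adjusted p = 1.44e-05). The gene lncRNA:CR40469, annotated from the base after the end of HeT-A{}4800, had 356.3 CPM ± 87.5 (SD, n = 6) in the KO-labelled libraries and 5.37 CPM ± 0.861 (SD, n = 6) in w1118 (6.05, SE 0.22, edgeR adjusted p = 1.62e-07).

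TART-C went the other way. Its single annotated copy, TART-C{}6275 (989 bases at 4:1288110-1289098), lies between HeT-A{}6276, which rose, and HeT-A{}6274, which did not pass the test (2.16, edgeR adjusted p = 0.0674). The element had 0.302, 0.236 and 0.352 CPM in the KO-labelled libraries with DMSO and 0.114, 0.398 and 0.406 CPM with inhibitor. In w1118 it had 2.96, 5.47 and 2.12 CPM with DMSO and 1.81, 2.63 and 3.70 CPM with inhibitor. All w1118 libraries lay above all KO-labelled libraries, whose values are within a few times the level of 3 counts, 0.0660 to 0.0884 CPM (log2 fold change -3.35, SE 0.37, edgeR adjusted p = 0.000283). TART-B had under 1.31 CPM in every library and was not tested.

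**Figure D2:**
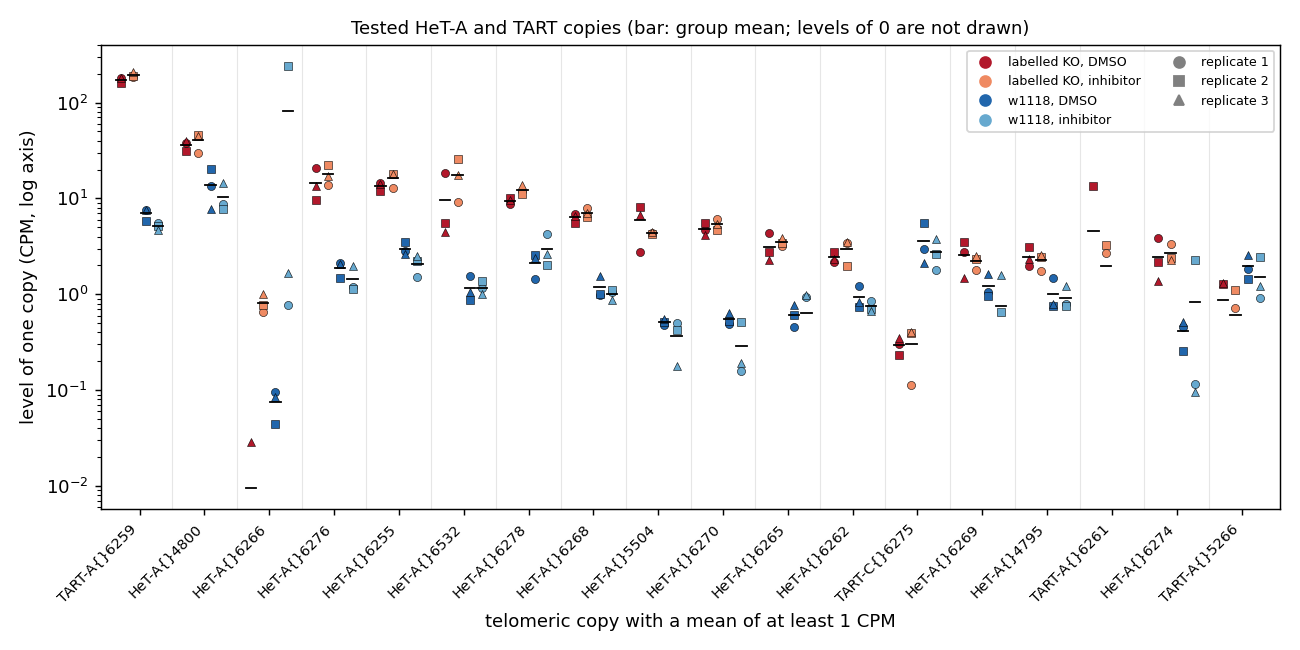
Level of each tested HeT-A or TART copy with a mean of at least 1 CPM (log axis) in the 12 libraries; colours are groups, symbols are replicate numbers and bars are group means. TART-A{}6259 and most HeT-A copies separate by genotype, HeT-A{}6266 is high in replicate 2 of w1118 with inhibitor at 241.9 CPM, and TART-C{}6275 lies lower in the KO-labelled libraries.

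R1A1, which inserts into the 28S ribosomal RNA genes, showed the largest fall. It had 148.1, 119.0 and 122.4 CPM in the KO-labelled libraries with DMSO and 188.0, 160.5 and 110.6 CPM with inhibitor. In w1118 it had 3805, 1357 and 2362 CPM with DMSO and 1432, 2054 and 2223 CPM with inhibitor. The lowest w1118 library was still several times above the highest KO-labelled library (log2 fold change -3.95, SE 0.28, 95% interval -4.58 to -3.33, edgeR adjusted p = 1.58e-05). The w1118 mean was 15.6 times that of the KO-labelled libraries. Of its counts, 94.2% belonged to R1A1{}6563, a copy of 5072 bases outside annotated genes at X:23223754-23228825. Its level was 106.7 CPM ± 26.4 (SD, n = 6) in the KO-labelled libraries and 2123 CPM ± 875.0 (SD, n = 6) in w1118. Of the 15 R1A1 copies tested, 5 were lower (background 6.24%) and 1 was higher (7.8%). The sum without the largest copy was still lower, by -1.55 on the log2 scale (adjusted p = 0.000533). The libraries had been depleted of ribosomal RNA. Rows of ribosomal RNA genes took 1.35% to 2.69% of the counts that were left. Of these rows, pre-rRNA:CR45845 measured 5858 CPM ± 863.1 (SD, n = 6) in the KO-labelled libraries and 9030 CPM ± 2675 (SD, n = 6) in w1118 (log2 fold change -0.61, SE 0.25, edgeR adjusted p = 0.150). By contrast, pre-rRNA:CR45847 measured 8185 CPM ± 1103 (SD, n = 6) and 7843 CPM ± 4737 (SD, n = 6) (0.14, SE 0.35, adjusted p = 0.842). The part of these rows in the result was not tested.

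The 3 Rt1 elements belong to the same R1 branch, and Rt1a and Rt1b rose. Rt1a had 55.4, 51.7 and 63.5 CPM in the KO-labelled libraries with DMSO and 57.1, 57.5 and 59.3 CPM with inhibitor, and 20.8, 28.3 and 21.5 CPM in w1118 with DMSO and 27.0, 41.4 and 24.2 CPM with inhibitor. Rt1b had 436.5, 400.3 and 411.3 CPM in the KO-labelled libraries with DMSO and 409.1, 411.2 and 404.2 CPM with inhibitor. In w1118 it had 212.2, 148.2 and 186.5 CPM with DMSO and 205.2, 332.4 and 211.3 CPM with inhibitor. For both elements the genotypes did not overlap, and replicate 2 with inhibitor was the highest w1118 library. The averaged change was 1.09 for Rt1a (SE 0.14, edgeR adjusted p = 0.000766) and 0.95 for Rt1b (SE 0.14, adjusted p = 0.00180). Rt1c changed by 0.29 (SE 0.14, 95% interval -0.02 to 0.61, adjusted p = 0.220). Of 18 tested Rt1a copies, 7 were higher (background 7.8%) and 0 lower (6.24%). The call of Rt1a rested on copies that overlap exons, without which it changed by 0.20 (adjusted p = 0.687).

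The rise of Rt1b came from 1 copy. Rt1b{}71 (5170 bases at X:6430043-6435212, minus strand) lies in an intron of CG42340 on the gene's own strand and held 45.5% of the element's counts. It had 300.02, 276.3 and 266.7 CPM in the KO-labelled libraries with DMSO and 259.5, 271.6 and 257.9 CPM with inhibitor. In w1118 it had 5.37, 1.40 and 7.01 CPM with DMSO and 1.29, 3.92 and 2.42 CPM with inhibitor. It was thus at a near-constant level in all 6 KO-labelled libraries and close to 0 in w1118 (log2 fold change 6.32, SE 0.44, edgeR adjusted p = 1.13e-05). CG42340 itself measured 33.6 CPM and 34.4 CPM in the 2 genotypes in the fit of single rows (log2 fold change -0.03, adjusted p = 0.884). Without its largest copy, the sum of Rt1b was lower in the KO-labelled libraries, by -0.60 (adjusted p = 0.0185). Of 32 tested copies of Rt1b, 5 were higher (background 7.8%) and 6 lower (6.24%).

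The jockey branch holds most of the elements, and its members moved in both directions. Doc2, BS, Juan, G4 and G6 were higher, X and G were lower, and jockey, jockey2, Doc, Doc3, F, G2, G3, G5 and BS3 did not pass the test. Doc2 had 29.6, 25.2 and 33.7 CPM in the KO-labelled libraries with DMSO and 29.3, 30.7 and 28.3 CPM with inhibitor, and 12.4, 15.9 and 10.3 CPM in w1118 with DMSO and 16.9 to 17.97 CPM with inhibitor. The genotypes did not overlap (log2 fold change 0.97, SE 0.11, edgeR adjusted p = 0.000340). Doc2{}4272, in an intron of Stlk on 2R, held 77.7% of the counts, and the sum of the other copies changed by 0.04 (adjusted p = 0.882). BS had 25.8, 27.4 and 28.6 CPM in the KO-labelled libraries with DMSO and 33.4, 27.97 and 29.2 CPM with inhibitor, and 11.1, 18.02 and 10.8 CPM in w1118 with DMSO and 12.9, 14.1 and 12.2 CPM with inhibitor. It too separated the genotypes (1.12, SE 0.13, adjusted p = 0.000388), and it kept its call without its largest copy (1.16, adjusted p = 0.000427).

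As a sum, X fell in both treatments. It had 36.4, 37.5 and 41.2 CPM in the KO-labelled libraries with DMSO and 34.2, 45.5 and 38.2 CPM with inhibitor, and 71.5, 90.5 and 71.9 CPM in w1118 with DMSO and 92.8, 111.9 and 71.5 CPM with inhibitor. Every w1118 library was above every KO-labelled library (log2 fold change -1.13, SE 0.12, edgeR adjusted p = 0.000294). Of its 25 tested copies, 3 were higher (background 7.8%) and 6 lower (6.24%), with a median change of -0.12. The copies X{}924, X{}978 and X{}996 averaged 15.2, 11.6 and 26.2 CPM in w1118. In the KO-labelled libraries they averaged 0.0563, 0.0733 and 4.74 CPM. The fall of G was smaller, from 8.28 CPM ± 1.04 (SD, n = 6) in w1118 to 5.94 CPM ± 0.928 (SD, n = 6), a log2 fold change of -0.47 (SE 0.12, adjusted p = 0.0273). Of its copies, G{}215 averaged 2.42 CPM in w1118 and 0 CPM in the KO-labelled libraries. G{}2518, its copy with most counts, averaged 1.40 CPM and 2.04 CPM in this order and did not pass (0.56, adjusted p = 0.0867). The sum of G lost its call in some fits without 1 library. Without replicate 1 of the KO-labelled libraries with DMSO, for example, the 3 lower elements were R1A1, TART-C and X.

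The rises of Juan, G4 and G6 were less even. Juan had 32.6, 71.2 and 56.6 CPM in the KO-labelled libraries with DMSO and 73.8, 64.6 and 88.2 CPM with inhibitor, against 31.3 to 42.0 CPM in the 6 w1118 libraries. Replicate 1 with DMSO lay within the w1118 range (0.82, SE 0.17, edgeR adjusted p = 0.0132). G4 had 34.7, 193.8 and 54.5 CPM in the KO-labelled libraries with DMSO and 20.3, 28.9 and 65.5 CPM with inhibitor, against 11.7 to 26.4 CPM in w1118. With inhibitor the genotypes overlapped, and the spread came from G4{}4347 on 2R, with 175.5 CPM in the same KO-labelled library (replicate 2 with DMSO) and 3.49 to 41.5 CPM in the other 5. The averaged change of G4 was 1.63 (SE 0.44, adjusted p = 0.0402), and that of G6 was 0.74 (SE 0.18, adjusted p = 0.0251), from 3.65 CPM ± 1.49 (SD, n = 6) in w1118 to 5.94 CPM ± 1.63 (SD, n = 6). G4 and G6 lost their calls in 11 and 8 of 21 other settings, 9 and 7 of which left out a single library, and without its largest copy Juan changed by 0.24 (adjusted p = 0.220).

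Doc, which held 20.7% of the non-LTR counts, and jockey did not pass the test as sums. Doc had 1394, 831.8 and 1343 CPM in the KO-labelled libraries with DMSO and 1419, 1550 and 1055 CPM with inhibitor, and 862.0, 914.0 and 855.2 CPM in w1118 with DMSO and 1008, 1041 and 1008 CPM with inhibitor. Replicate 2 labelled KO with DMSO was below all w1118 libraries, and the other 5 were above them (0.42, SE 0.15, 95% interval 0.08 to 0.76, edgeR adjusted p = 0.111). Without that library Doc was called (0.52, adjusted p = 0.0440). The copy Doc{}928, on the opposite strand in an intron of Con (3L:5045511-5050232), moved with it: it had 248.5, 12.9 and 291.0 CPM in the KO-labelled libraries with DMSO and 165.3, 299.0 and 15.9 CPM with inhibitor, against 36.3 to 69.8 CPM in w1118. It was thus high in 4 and low in 2 libraries of 1 genotype (1.51, SE 0.73, adjusted p = 0.205) and was singled out after its values had been seen.

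Another Doc copy, also chosen after its values had been seen, is known for its effect on its host gene. Doc{}CHKov1[Doc1420] (3R:25324412-25328927) lies in CHKov1, where this insertion truncates the gene and has been tied to resistance against an insecticide and a virus. It had 265.9, 243.5 and 186.0 CPM in the KO-labelled libraries with DMSO and 271.0, 279.1 and 279.0 CPM with inhibitor, and 140.7, 157.3 and 140.3 CPM in w1118 with DMSO and 158.3, 161.4 and 157.3 CPM with inhibitor. The genotypes did not overlap (0.73, SE 0.09, edgeR adjusted p = 0.000549). CHKov1 itself had 30.2 CPM and 21.9 CPM in the 2 genotypes in the same fit and did not pass the test (0.46, adjusted p = 0.0616).

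Summed jockey copies had 472.9, 480.7 and 592.1 CPM in the KO-labelled libraries with DMSO and 476.2, 517.4 and 665.4 CPM with inhibitor, and 389.9, 576.2 and 470.1 CPM in w1118 with DMSO and 533.9, 922.0 and 439.1 CPM with inhibitor. The groups overlapped in both treatments (-0.04, SE 0.19, 95% interval -0.48 to 0.39, edgeR adjusted p = 0.916), and the sign of this estimate changed with the libraries kept. Below this sum, 13 of 50 tested jockey copies were called, 6 higher and 7 lower, where 14.0% of all features tested singly were called. Their changes ran from -10.80 to 6.64 on the log2 scale.

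The I branch holds I, the element behind hybrid dysgenesis in crosses of certain stocks, and its relative Ivk. Ivk had 49.9, 50.3 and 41.3 CPM in the KO-labelled libraries with DMSO and 85.1, 40.4 and 76.5 CPM with inhibitor, and 13.5, 14.6 and 13.5 CPM in w1118 with DMSO and 17.7, 22.7 and 12.3 CPM with inhibitor. All KO-labelled libraries lay above all of w1118 (1.85, SE 0.20, 95% interval 1.41 to 2.30, edgeR adjusted p = 0.000253). Its copy with most counts, Ivk{}1704 (10104 bases at X:1357835-1367938), held 56.7% of the counts, and the other copies together were still higher (0.82, adjusted p = 0.0332). I had 54.4 CPM ± 7.79 (SD, n = 6) in the KO-labelled libraries and 39.3 CPM ± 11.1 (SD, n = 6) in w1118 and did not pass (0.48, SE 0.17, adjusted p = 0.0950). The element baggins, of the LOA branch, changed by 0.34 (SE 0.16, adjusted p = 0.213).

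**Figure D3:**
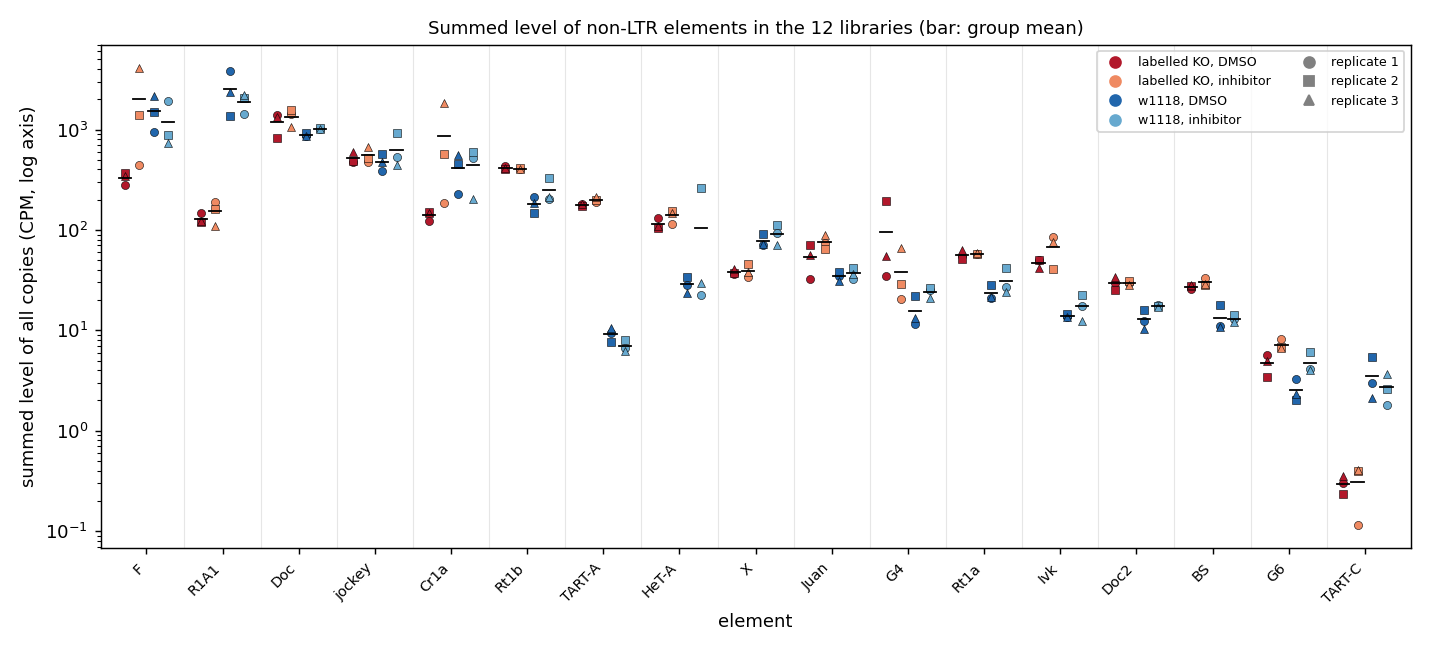
Summed level in CPM (log axis) of the elements described by library, in the 12 libraries; colours are groups, symbols are replicate numbers and bars are group means. TART-A, R1A1, X, BS, Doc2, Ivk, Rt1a, Rt1b and TART-C separate the genotypes in every library, while F and Cr1a spread more within the KO-labelled libraries than between genotypes.

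F and Cr1a, the only CR1-like element here, varied widely among the flies labelled KO that ate inhibitor. F had 281.6, 366.1 and 342.6 CPM in the KO-labelled libraries with DMSO and 439.9, 1390 and 4148 CPM with inhibitor, and 938.2, 1491 and 2175 CPM in w1118 with DMSO and 1934, 879.7 and 727.7 CPM with inhibitor. Cr1a had 122.9, 150.2 and 147.1 CPM in the KO-labelled libraries with DMSO and 184.7, 574.7 and 1846 CPM with inhibitor, and 227.5, 455.6 and 558.7 CPM in w1118 with DMSO and 521.9, 592.8 and 203.0 CPM with inhibitor. With DMSO both were lower in every KO-labelled library than in any w1118 library, and with inhibitor the genotypes overlapped. Neither passed with DMSO (F -2.22, SE 0.71, edgeR adjusted p = 0.116; Cr1a -1.56, SE 0.71, adjusted p = 0.273) or in the average (F -0.73, SE 0.48, adjusted p = 0.369; Cr1a -0.29, SE 0.49, adjusted p = 0.753).

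A single short copy carried each of these spreads. F{}3336 (327 bases at 2L:16855435-16855761, in an intron of CG31809 on the opposite strand) held 77.0% of the counts of F. It had 28.6, 73.3 and 42.6 CPM in the KO-labelled libraries with DMSO and 169.1, 1109 and 3816 CPM with inhibitor, and 428.3 to 1922 CPM in w1118. In the average F{}3336 did not pass (-1.84, SE 0.67, edgeR adjusted p = 0.101). CG31809 was higher, with 2.92 CPM in the KO-labelled libraries and 0.457 CPM in w1118 (2.69, adjusted p = 0.00896). Cr1a{}5681 (545 bases on 2R, in an intron of hrm on the opposite strand) held 68.6% of the counts of Cr1a and ranged from 10.8 to 1661 CPM in the KO-labelled libraries, with the lowest and the highest value in the same libraries as F{}3336. The ribosomal pseudogene 28SrRNA-Psi:CR40596, which is no member and was chosen after its values had been seen, also had its lowest value, 26.9 CPM, and its highest, 1700 CPM, in these libraries. Without the largest copy, F changed by -0.15 (adjusted p = 0.549) and Cr1a by -0.28 (adjusted p = 0.630) in the average. Without F{}3336 and Cr1a{}5681, the non-LTR share of counts was 0.325% to 0.394% in the KO-labelled libraries and 0.360% to 0.741% in w1118, a difference of means of -0.121 percentage points.

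**Figure D4:**
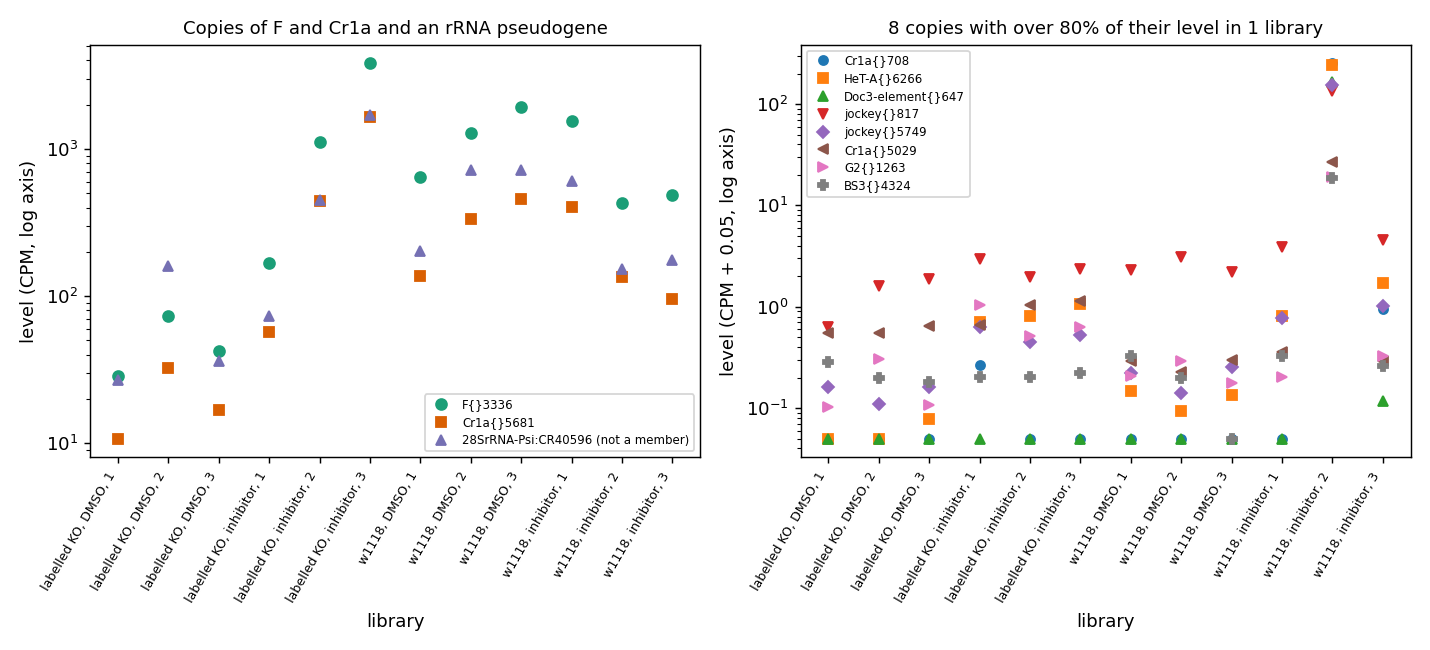
Level in CPM (log axes) in each of the 12 libraries: on the left, F{}3336, Cr1a{}5681 and the ribosomal pseudogene 28SrRNA-Psi:CR40596; on the right, with 0.05 added, the 8 copies with over 80% of their level in 1 library. The 3 features on the left move alike, with a maximum in replicate 3 of the KO-labelled libraries with inhibitor, and all 8 on the right peak in replicate 2 of w1118 with inhibitor.

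Single copies were tested next, to see which of them carry the change of an element. Reads that fit several near-identical copies are shared among them by estimation, so a value of 1 copy is less certain than a sum. Of the 977 copies, 87 had 0 counts in all libraries and 485 had enough to be tested. With DMSO, 77 of 485 passed, 53 higher (background 3.73%) and 24 lower (2.69%), where 6.42% of 16253 features passed. This count was 49 and 46 without replicate 2 or 3 of the KO-labelled libraries with DMSO, and 50 and 47 without replicate 1 or 3 of w1118 with DMSO. In the table of sums, the share of all features that passed fell as well without these libraries. It went from 5.06% to 2.33%, 1.99%, 2.60% and 2.72% in this order. With inhibitor it was 70, 46 higher (3.16%) and 24 lower (2.28%), against 5.45%. In the average it was 134, 91 higher (background 7.8%) and 43 lower (6.24%), against 14.0% of all features. A change of at least 4-fold was estimated for 50 of the 134. Of the 134, 79 belonged to elements whose sum was not called, and of the 27 elements with called copies 11 had them in both directions. Among elements not called as sums, Cr1a had 11 copies higher and 3 lower of 76 tested, F had 11 higher and 4 lower of 52, and Doc had 4 higher and 2 lower of 58.

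**Figure D5:**
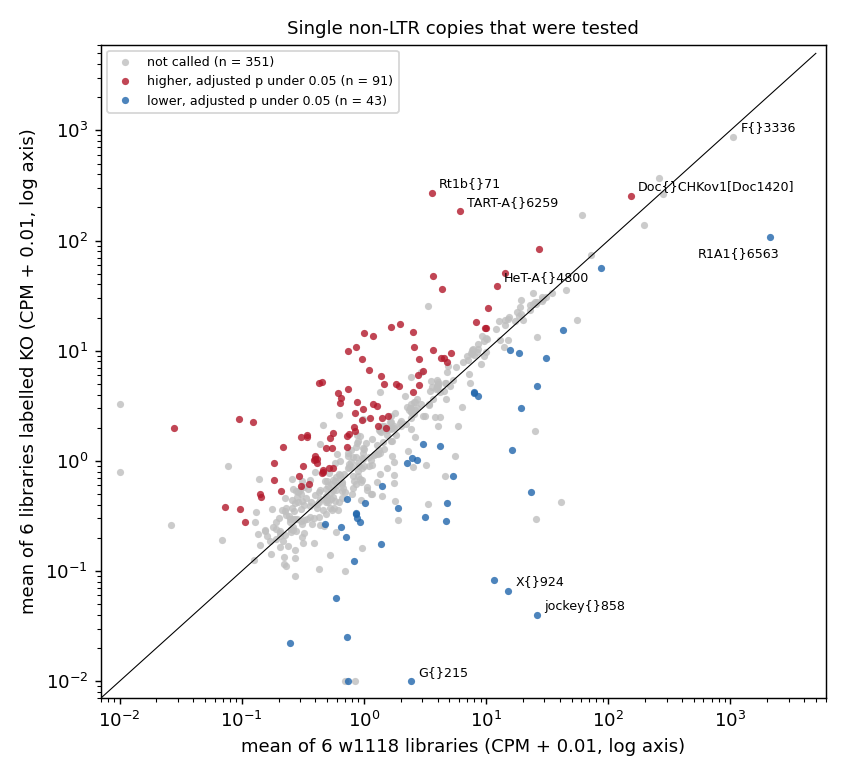
Mean level of each of the 485 tested copies in the 6 w1118 libraries (x axis) and in the 6 KO-labelled libraries (y axis), in CPM plus 0.01 on log axes, with the line of equal levels; 91 copies were called higher and 43 lower in the KO-labelled libraries. Rt1b{}71 and TART-A{}6259 lie far above the line, and R1A1{}6563, jockey{}858, X{}924 and G{}215 far below it.

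Besides Rt1b{}71 and TART-A{}6259, the largest rises among copies that averaged at least 1 CPM and did not overlap between genotypes were those of G6{}2320, jockey{}1268, HeT-A{}6270 and Rt1b{}990. G6{}2320 on 2R had 48.8 to 135.2 counts in each KO-labelled library, 0 counts in 4 w1118 libraries, and 3.63 and 18.5 counts in the other w1118 libraries (edgeR adjusted p = 0.00249). The copy jockey{}1268 (3R:8707461-8709786) measured 7.47 to 29.3 CPM in the KO-labelled libraries and 0.276 to 1.69 CPM in w1118 (3.87, SE 0.50, adjusted p = 0.000639). Rt1b{}990, in an intron of the RNA-binding protein gene bru3 on the opposite strand (3L:13574910-13580104), measured 8.45 to 13.1 CPM against 0 to 2.08 CPM (3.65, SE 0.97, adjusted p = 0.0329), and bru3 changed by 0.31 (adjusted p = 0.235). The call of Rt1b{}990 was lost in 8 of 12 fits that left out 1 library, with changes of 3.37 to 5.03 over the 12.

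Of the copies that fell most, several were at or near 0 in the KO-labelled libraries. G{}215 (X:21532621-21533632) had 0 counts in all 6 KO-labelled libraries and 62.5 to 131.5 counts in each w1118 library. Against a floor of 3 counts per library its level was at least 31.6-fold lower (adjusted p = 2.47e-05). The copy jockey{}858 on 2R had 6.53 counts in 1 KO-labelled library, 0 in the other 5 and 283.5 to 1730.9 counts in w1118 (adjusted p = 0.000138). X{}924 (3L:4451977-4456704) had 14.5 counts in 1 KO-labelled library, 0 in the other 5 and 350.7 to 1078 counts in w1118 (adjusted p = 0.000616). X{}978 (3L:11105351-11106998) had at most 10.8 counts in a KO-labelled library and 332.6 to 571.1 counts in w1118 (adjusted p = 9.04e-05). These 4 copies are 1012, 3244, 4728 and 1648 bases long in this order, and none of them lies in an annotated gene.

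The other copies with the largest falls by the same rule were jockey{}90 and Juan{}257. The copy jockey{}90 (X:9508193-9509631), in an intron of CG32700 on the opposite strand, measured 0 to 1.23 CPM in the KO-labelled libraries and 19.8 to 32.6 CPM in w1118 (-5.48, SE 0.86, edgeR adjusted p = 0.00230), while CG32700 changed by 0.13 (adjusted p = 0.502). Juan{}257 (X:22551840-22556074) fell in the KO-labelled libraries (-4.40, SE 1.14, adjusted p = 0.0297) although Juan as a sum rose, and lost its call in 7 of 12 such fits, with changes of -7.91 to -4.07 over the 12. Juan{}83 (X:8031495-8035729), the Juan copy with most counts, had 25.3 CPM ± 11.9 (SD, n = 6) and 3.31 CPM ± 3.02 (SD, n = 6) and did not pass (3.16, SE 1.00, adjusted p = 0.0654).

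By place, called copies were found on every arm with tested copies. The share called was 22.1% of 68 tested copies on 2L, 29.7% of 138 on 2R, 21.0% of 119 on 3L, 36.5% of 52 on 3R, 36.6% of 41 on chromosome 4 and 28.4% of 67 on X. Most of the called copies on chromosome 4 were HeT-A or TART copies. Of the 257 tested copies outside genes, 46 were higher and 31 lower, of 98 in introns on the gene's strand 19 were higher and 6 lower, and of 107 in introns on the opposite strand 17 were higher and 5 lower. Of the 15 copies over exons on the opposite strand, 7 were higher and 1 lower. Copies over 4500 bases, near the full length of many of these elements, were called in 44 of 137 cases, 33 higher and 11 lower. These shares are descriptions, since a copy with more counts is more easily called. For 56 called copies inside a tested gene, that gene was called too in 18 cases, 15 of them in the same direction, where 14.0% of all features of this fit were called.

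Copies near Sirt6 (3R:10255349-10261849) were looked at as well, a choice made after the values had been seen. Within 2 Mb of the gene, 5 of 7 tested copies were called, 4 higher and 1 lower, against 14 of 45 on the rest of 3R and 14.0% of all features. Of the genes tested in the same fit, 86 of 554 within 2 Mb of Sirt6 were called (15.5%), and 331 of 2919 on the rest of 3R (11.3%). The higher ones were jockey{}1268, given above, jockey{}1278, Rt1a{}1276 and BS{}1292, and Rt1b{}1288 was lower. The copy jockey{}1278 (3R:9319631-9319993) had 53.7 to 127.3 counts in each KO-labelled library and at most 1.59 counts in any w1118 library. Rt1b{}1288 (3R:10958085-10963254) had a mean of 1.25 CPM in the KO-labelled libraries and 16.4 CPM in w1118 (-3.81, SE 0.38, edgeR adjusted p = 0.000124). The 2 I copies annotated inside Sirt6 did not pass: I{}Sirt6-iso-1a (3R:10255433-10257395) had 3.24 to 5.24 CPM in the KO-labelled libraries and 0 to 2.58 CPM in w1118 (1.70, SE 0.91, adjusted p = 0.253), and I{}Sirt6-iso-1b changed by -0.89 (SE 1.02, adjusted p = 0.608).

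One w1118 library stood apart in single copies, which were looked for after the values had been seen. Among 269 copies with a mean of at least 1 CPM, 8 had over 80% of their summed level in 1 library, and for all 8 it was replicate 2 of w1118 with inhibitor. Cr1a{}708 had 251.9 CPM there and at most 0.898 CPM in each of the other 11 libraries. Doc3-element{}647 had 166.2 CPM there, 0.0672 CPM in 1 other library and 0 in the other 10. The same library held 241.9 CPM of HeT-A{}6266, 152.6 CPM of jockey{}5749, 134.3 CPM of jockey{}817, 26.5 CPM of Cr1a{}5029, 18.9 CPM of G2{}1263 and 18.7 CPM of BS3{}4324. It was also the library with 10.2 CPM of aly, a gene of the testis meiotic arrest programme, which had at most 0.700 CPM elsewhere, and the 10 testis markers summed to 14.2 CPM there and to 1.498 to 2.58 CPM in the other 11 libraries. Most of this sum was aly itself, and Mst84Da had 2.12 CPM there and at most 0.0845 CPM elsewhere. Whether testis cells were present, and their part in the result, was not tested. Of the 27 tested sums, 9 took their largest value in this library, jockey, X and G among them. Doc3 had 185.3 CPM there, against 9.39 to 24.7 CPM elsewhere, and G2 had 48.8 CPM, against 5.30 to 12.4 CPM.

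The inhibitor changed no element or copy past the threshold in edgeR. In the KO-labelled libraries, 0 of 27 elements passed, where 0.00693% of all features passed, and 3 elements had an unadjusted p under 0.05, as did 3.68% of all features. In w1118, 0 elements and 0.0% of all features passed, and 10 elements had an unadjusted p under 0.05, against 7.47% of all features. Of these elements, Doc3, HeT-A, G2, BS3, G5, G6, baggins and Rt1b had their highest w1118 level in replicate 2 with inhibitor, the library that stood apart. TART-A and Doc2 did not. For the interaction, the difference of the inhibitor effects between genotypes, 0 elements and 0.0% of all features passed, and 3 elements had an unadjusted p under 0.05, against 4.82% of all features. Of single copies, 0 passed in each of these comparisons, with 26, 54 and 30 of 485 at an unadjusted p under 0.05, against 3.79%, 7.57% and 4.89% of all features (background at the adjusted threshold 0.00615% in the KO-labelled libraries). Without replicate 2 of w1118 with inhibitor, which was high for it, HeT-A{}6266 was called for the inhibitor in the KO-labelled libraries (6.11, edgeR adjusted p = 0.0251) and in w1118 (3.96, adjusted p = 0.0456). Its levels were low: the KO-labelled libraries had 0, 0 and 1.31 counts with DMSO and 29.2, 33.0 and 34.9 counts with inhibitor. In w1118 it had 0.0445 to 0.0962 CPM with DMSO, and 0.768 and 1.65 CPM in the inhibitor libraries kept. Another copy highest in the library left out, jockey{}5749, had 0.0597 to 0.110 CPM with DMSO and 0.395 to 0.586 CPM with inhibitor in the KO-labelled libraries. In these 3 comparisons with all libraries, DESeq2 called 6, 1 and 5 copies. They were F{}3336, Cr1a{}5681, F{}4636, G5{}556, X{}978 and Rt1c{}4964 in the KO-labelled libraries, G6{}2320 in w1118, and F{}3336, Cr1a{}5681, F{}4636, X{}978 and G4{}4347 for the interaction, named after their values had been seen. X{}978 had only 10.8, 0 and 6.53 counts in the KO-labelled libraries with DMSO and 0 with inhibitor. DESeq2 called more of all features than edgeR for the genotype with DMSO, 9.27% against 5.06% in the table of sums. Its share of all features in the inhibitor and interaction comparisons is not given here, so its calls there have no background beside them. DESeq2 called 2 elements in the KO-labelled libraries, F (2.58, adjusted p = 0.0166) and Cr1a (2.62, adjusted p = 0.0197), both of which had their highest level in replicate 3 with inhibitor. DESeq2 called 0 elements in w1118 and 0 for the interaction. The smallest unadjusted p of the interaction among elements was that of TART-A, whose genotype effect was 4.28 with DMSO and 4.85 with inhibitor (0.57, SE 0.19, edgeR adjusted p = 0.971).

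Genes of the pathways that act on these elements were read beside them. Of 29 tested genes of the piRNA pathway, 2 were higher and 1 was lower in the averaged genotype effect, against 11.9% of all features called. They were squ (from 1.08 to 4.86 CPM, 2.18, SE 0.34, edgeR adjusted p = 0.00284), vas, a germ-line RNA helicase (from 0.531 to 0.936 CPM, 0.81, SE 0.22, adjusted p = 0.0373), and Hen1, the methylase of piRNA and siRNA ends (from 3.97 to 2.44 CPM, -0.68, SE 0.18, adjusted p = 0.0372). Hen1 was also the 1 lower of 5 tested genes of the siRNA pathway, where 0 were higher. Of 20 tested genes of heterochromatin, 0 passed. Of 16 genes of telomere capping and end protection, mei-41, the ATR kinase (0.65, SE 0.14, adjusted p = 0.0140), and Ku80, which binds DNA ends (0.73, SE 0.16, adjusted p = 0.0172), were higher, and HipHop, a protein of the telomere cap, was lower (-0.91, SE 0.20, adjusted p = 0.0155). An unadjusted p under 0.05 was found for 11 of the 29 genes of the piRNA pathway, 1 of 5 of the siRNA pathway, 0 of 20 of heterochromatin and 4 of 16 of telomere capping, against 26.7% of all features. The medians of the 4 lists lay between -0.13 and 0.06, and that of all features was -0.03. The inhibitor changed 0 genes of these lists in either genotype by edgeR.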

How the data were processed

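RNA of single heads was sequenced in 12 libraries, 3 in each of 4 groups, after DNase treatment, addition of ERCC spike-in RNA and depletion of ribosomal RNA, per the labels' protocols. The authors deposited 1 table of estimated counts per gene and per annotated transposable element copy, which were not scaled to a common depth. Trim Galore 0.6.7, STAR 2.7.9a, Salmon 1.10.1 and the build BDGP6 are named, without their order, per the submitters' processing notes. The annotation used and whether strand was used are not given in the sources used here, so reads of a copy and of a gene on the other strand may not be told apart.

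Names and positions of 5734 of 5736 FlyBase copies came from the Ensembl 115 annotation of BDGP6.54. Estimated counts were rounded, and copies were tested singly and as sums per element, each in 1 table with all genes. Features were kept by filterByExpr (minimum count 10), scaled by TMM and tested with edgeR 4.0.16 (R 4.3.3) in a model of 4 groups over all 12 libraries. P-values were adjusted by the Benjamini-Hochberg method over all features of a table, at 0.05. They measure the spread between these flies. SEs were derived from the test statistics. A level of 3 counts corresponds to 0.0523 to 0.103 CPM, which covers counting error only.

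The members and the gene lists were chosen with earlier results of these data known. Elements are named in full if called in the averaged genotype effect (at most 12) or among the 6 with the highest mean, and copies by the 6 largest rises and falls that passed, averaged at least 1 CPM and did not overlap between genotypes. Other copies, sums and genes given with values were chosen after those values had been seen. Alternatives were DESeq2 1.42.0, limma 3.58.1 with voom and quality weights, other scaling and filters, a replicate block, models of the groups compared alone, and leaving out libraries or copies. The procedure was tested on simulated data.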

Additional observations from a re-analysis of the deposited data

How the results depend on the processing

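Counts of summed elements changed with the copies, the libraries and the tool. Leaving out the copy with most counts of each element gave 4 of 26 with DMSO and 8 (4 higher, 4 lower) in the average, where Rt1b turned to -0.60. Leaving out replicate 2 of both w1118 groups gave 16 with inhibitor and 20 in the average, and voom with sample quality weights also gave 20 in the average. The share of all features called rose too, from 4.11% to 13.4% with inhibitor, and from 11.9% to 29.5% and 28.5% in the average. Leaving out 1 library at a time gave 8 to 13 elements with DMSO, 6 to 10 with inhibitor and 10 to 17 in the average. The share of all features called in these fits was 1.99% to 11.8%, 2.18% to 9.77% and 7.12% to 23.0%. For single copies it gave 46 to 91 with DMSO, and 0 to 1 for the inhibitor in the KO-labelled libraries and in w1118, where the 1 was HeT-A{}6266 without replicate 2 of w1118 with inhibitor. Without both replicates numbered 2 of w1118, it was also the 1 copy called for the inhibitor in the KO-labelled libraries. DESeq2 called 2 elements and 6 copies for the inhibitor in the KO-labelled libraries, 1 copy in w1118 and 5 for the interaction. It also called more of all features than edgeR for the genotype with DMSO, 9.27% against 5.06% in the table of sums. Its share of all features for the inhibitor and the interaction is not given here. The estimate of jockey, not called in any setting, was -0.14 to 0.17 without 1 library, 0.14 with voom and 0.25 without both w1118 replicates numbered 2. The difference in the share of counts was 0.0699 percentage points without R1A1, -0.0150 when replicate 3 of the KO-labelled libraries with inhibitor was left out too, and -0.212 to -0.0897 with R1A1 and without 1 library, all chosen after seeing the data. The causes of these shifts were not tested beyond what leaving out copies or libraries shows. With the replicate block, 12 elements passed in the average, against 9.81% of all features in the table of sums, and 110 copies passed. Same-numbered libraries deviated together with correlations of -0.18 to 0.28, below 0.1 for at least 1 number in each pair of groups. With so few libraries a group, these values cannot decide whether the numbers mark shared batches. The main model did not pair them. R1A1, TART-C, Ivk, X and BS kept direction and call in all settings that gave a value, and TART-A and Doc2 in all but the one without their largest copy. Over the 17 described elements, 320 of 355 values kept direction and side of the threshold, and over the 12 described copies 200 of 215. With median-of-ratios scaling 13 elements passed in the average, against 11.5% of all features in the table of sums, and 138 copies passed. For copy counts in settings other than the main fit, the share of all features tested singly is not given here. With 3 flies a group, changes of low copies are poorly resolved.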
